A study of Homo sapiens with 4 samples.

Results

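The podocalyxin and ERM anchoring complex was followed through 8 genes: PODXL, PODXL2, EZR, RDX, MSN, NF2, SLC9A3R1 and SLC9A3R2. They were taken by gene name from the 29123 genes named on the array, and the set was chosen by the value of PODXL, which is among the largest rises on the GALNT3/T6 KO-labelled arrays. Expression was measured in A2780s cells, an established line of human epithelial ovarian cancer, on 4 two-colour Agilent arrays of the whole human genome, all on 1 slide. Each array set the RNA of a knockout clone, labelled with Cy5, against the RNA of a mock-transfected A2780s clone (Ctrl), labelled with Cy3. In the first group, 2 clones carried a CRISPR-Cas9 knockout of GALNT3 (GALNT3 KO). In the second group, 2 clones were labelled as double knockouts (GALNT3/T6 KO), by their labels made with shRNA against GALNT6 in GALNT3 KO cells. GALNT3 and GALNT6 encode enzymes that start mucin-type O-glycosylation. Every group was a set of selected clones, delivery of the shRNA went with the second group alone, and Ctrl served only as the reference channel, so its own spread between cultures entered no test. The study's methods speak of a reverse-colour label for Ctrl RNA, while the labels give it Cy3 on all 4 arrays, and directions here follow the labels. With no dye swap in the labels, a dye effect would remain in the ratios.

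Podocalyxin, the product of PODXL, is a heavily glycosylated and sialylated transmembrane protein of the CD34 family. It coats the apical face of kidney podocytes and of some epithelial and endothelial cells, and its negative charge holds neighbouring membranes apart. Its cytoplasmic tail binds the PDZ domain scaffolds NHERF1 and NHERF2, which the array lists as SLC9A3R1 and SLC9A3R2. These in turn bind ezrin (EZR), radixin (RDX) and moesin (MSN), the ERM proteins, which link membrane proteins to cortical actin. Merlin, the product of NF2, has the same FERM domain as the ERM proteins and acts upstream of the Hippo pathway. Endoglycan, the product of PODXL2, is a relative of podocalyxin.

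These genes were read by 16 probes of 60 bases, of which 15 were well above background in both channels of all 4 arrays. The exception was A_24_P453819, assigned to MSN, which was well above background in none. PODXL, PODXL2, RDX, SLC9A3R1 and SLC9A3R2 had 1 probe each, so no second probe tests their values. The PODXL probe, A_23_P215060, lies at chr7:131185135-131185194 on the minus strand (hg19, as the files place it). For EZR the brighter probe, A_23_P19590, lies at chr6:159187670-159187729 on the minus strand.

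Printed below, 5′ to 3′, are 5 probes that each read spliced RNA across an intron, as their genomic span is longer than the probe. A probe of MSN and a probe of SLC9A3R1 with a span above the probe's length are not printed. The first (span 333 bases) was above background in 0 channels, and the second (span 63 bases) is only slightly longer than the probe. They are shown because the EZR and NF2 probes among them gave other values than the brightest probe of their gene. In hg19 they span chr3:127381098-127387286 (PODXL2, plus strand), chr6:159197517-159204591 (EZR, minus strand), chrX:64956768-64957079 (MSN, plus strand), and, for NF2 on the plus strand, chr22:30061004-30064331 and chr22:30057293-30061002, which follow each other on the transcript.
PODXL2 A_23_P121037: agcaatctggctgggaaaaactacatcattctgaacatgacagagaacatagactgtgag
EZR A_24_P290481: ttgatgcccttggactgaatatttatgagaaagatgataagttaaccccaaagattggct
MSN A_24_P186370: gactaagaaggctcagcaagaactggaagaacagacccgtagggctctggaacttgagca
NF2 A_23_P325991: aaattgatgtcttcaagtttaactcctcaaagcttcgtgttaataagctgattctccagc
NF2 A_23_P29199: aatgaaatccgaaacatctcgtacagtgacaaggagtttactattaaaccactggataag

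Before any direction is drawn, the targeted genes were read on each array. On the GALNT3 KO arrays neither channel of GALNT3 was well above background. On the GALNT3/T6 KO-labelled arrays it was well above background in both channels, and its log2 ratio of KO over Ctrl was 4.80 for clone 1 and 5.08 for clone 2 (mean 4.94, SE 0.10, adjusted p = 9.09e-05 in limma). This goes against the label, and its cause was not tested. GALNT6 stood at -0.66 and -0.69 on those arrays (mean -0.67, SE 0.08, adjusted p = 0.00334). In GALNT3 KO it stood at -0.47 and -0.38 (mean -0.42, SE 0.08, adjusted p = 0.0445). The call was lost under 7 of 13 alternatives. Leaving out either GALNT3 KO clone was among these, but 0 of all genes tested were then called in GALNT3 KO. Across all genes, log2 ratios correlated at r = 0.83 between the GALNT3 KO arrays, at 0.92 between the GALNT3/T6 KO-labelled arrays, and at 0.20 to 0.32 between the groups, where the shared reference and slide enter every value. Between 86.9% and 93.8% of the spots were well above background, depending on array and channel, and 0 were saturated.

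PODXL itself stood apart from every other member on the GALNT3/T6 KO-labelled arrays. Its log2 ratio of KO over Ctrl was 0.03 and -0.02 for the GALNT3 KO clones, and 6.43 and 7.07 for the GALNT3/T6 KO-labelled clones, where the KO signal was 86.5 and 134 times the Ctrl signal. That the groups lie apart follows from the choice of the set, and the gap within the second pair was 0.63. The mean of the second pair was 6.75, or 108-fold, the 3rd highest of 27198 genes tested. As this value chose the gene set, it is given as a description without a test. Just above PODXL in that order stood S100A6 at 6.97, with GPX1 first, and just below it ANXA3 at 6.45 and PHLDA1 at 6.30. In GALNT3 KO against Ctrl, which did not choose the set, the mean was 0.00 (SE 0.17, 95% interval -0.43 to 0.44, adjusted p = 0.994 in limma).

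The signals behind these ratios moved in both channels. After normalization the KO channel read 8.57 and 7.92 on the log2 scale in GALNT3 KO, against 17.11 and 17.67 on the GALNT3/T6 KO-labelled arrays. The Ctrl channel, which holds RNA of the same label on every array, read 8.54 and 7.94 on the GALNT3 KO arrays, against 10.67 and 10.60 on the other pair. PODXL was therefore 5.28-fold brighter in the Ctrl channel of the second pair, a log2 difference of 2.40, where the median over all genes tested was -0.08. For the other 7 members this difference lay between -0.28 and 0.16. On the second pair the Ctrl signal amounted to 1.16% and 0.746% of the KO signal on the same spot. Whether the KO signal has a part in that Ctrl signal was not tested, and the size of the PODXL ratio rests on the Ctrl channel.

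**Figure D1:**
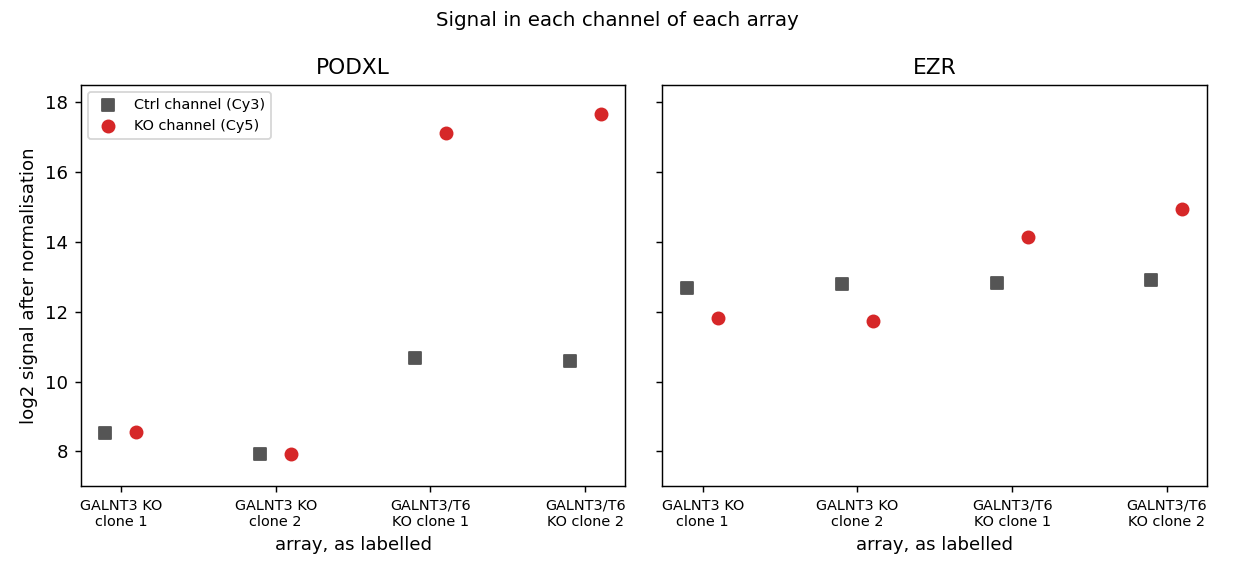
Log2 signal of PODXL (left) and EZR (right) in the Ctrl channel (grey squares) and the KO channel (red circles) of each array, after normalization. For PODXL both channels were brighter on the GALNT3/T6 KO-labelled arrays than on the GALNT3 KO arrays, by 2.40 in Ctrl and 9.15 in KO, while for EZR the Ctrl channel stayed between 12.69 and 12.92.

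Among all genes tested, those whose 4 log2 ratios lay nearest to PODXL by Euclidean distance were ANXA3 (distance 0.60), ALDH1A3 (0.65), S100A6 (0.70), GPX1 (1.00), EFEMP1 (1.05) and ANXA1 (1.12). ANXA1 and ANXA3 encode annexins, which bind membrane phospholipids in the presence of calcium, and S100A6 encodes a small calcium-binding protein. By this choice each of the 6 has the same shape as PODXL. Their log2 ratios ran from -0.08 to 0.65 in GALNT3 KO and from 5.96 to 7.19 on the GALNT3/T6 KO-labelled arrays. In the Ctrl channel these genes, too, were brighter on the second pair, by 0.36 for ANXA1 to 4.42 for EFEMP1 on the log2 scale.

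Ezrin was the member whose mean log2 ratio was called in both groups against Ctrl, and it moved in opposite directions. EZR stood at -0.86 and -1.06 in GALNT3 KO, and at 1.29 and 2.04 on the GALNT3/T6 KO-labelled arrays. All 4 values lay outside the range of the other group. The mean fell by 0.96 in GALNT3 KO (SE 0.19, adjusted p = 0.0493), to 1.94-fold below Ctrl. It rose by 1.66 on the GALNT3/T6 KO-labelled arrays (SE 0.19, adjusted p = 0.00316), to 3.17-fold above Ctrl. Between the groups EZR differed by 2.62 (SE 0.28, 95% interval 1.90 to 3.35, adjusted p = 0.0044 in limma), or 6.15-fold.

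The Ctrl channel of EZR held between 12.69 and 12.92 on the log2 scale over the 4 arrays, and the KO channel went from 11.83 and 11.74 in GALNT3 KO to 14.13 and 14.96 on the second pair. Hence the EZR values, unlike those of PODXL, differed between the groups in the KO channel with little change in Ctrl. The second EZR probe, A_24_P290481, whose sequence is printed above, gave -0.30 and -0.15 in GALNT3 KO. There its mean of -0.22 was not called (adjusted p = 0.456). On the GALNT3/T6 KO-labelled arrays this probe gave 1.44 and 2.23 (mean 1.84, adjusted p = 0.00212), and the groups differed by 2.06 (adjusted p = 0.00817). The rise thus held on both probes and the fall in GALNT3 KO was called on 1 of 2. Without clone 1 of GALNT3 KO that fall was -1.06, and without clone 2 it was -0.86. Neither was called, but 0 of all genes tested were then called in GALNT3 KO, so this does not judge EZR. The difference between the groups was 2.72 and 2.52 in these fits, and it lost its call.

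**Figure D2:**
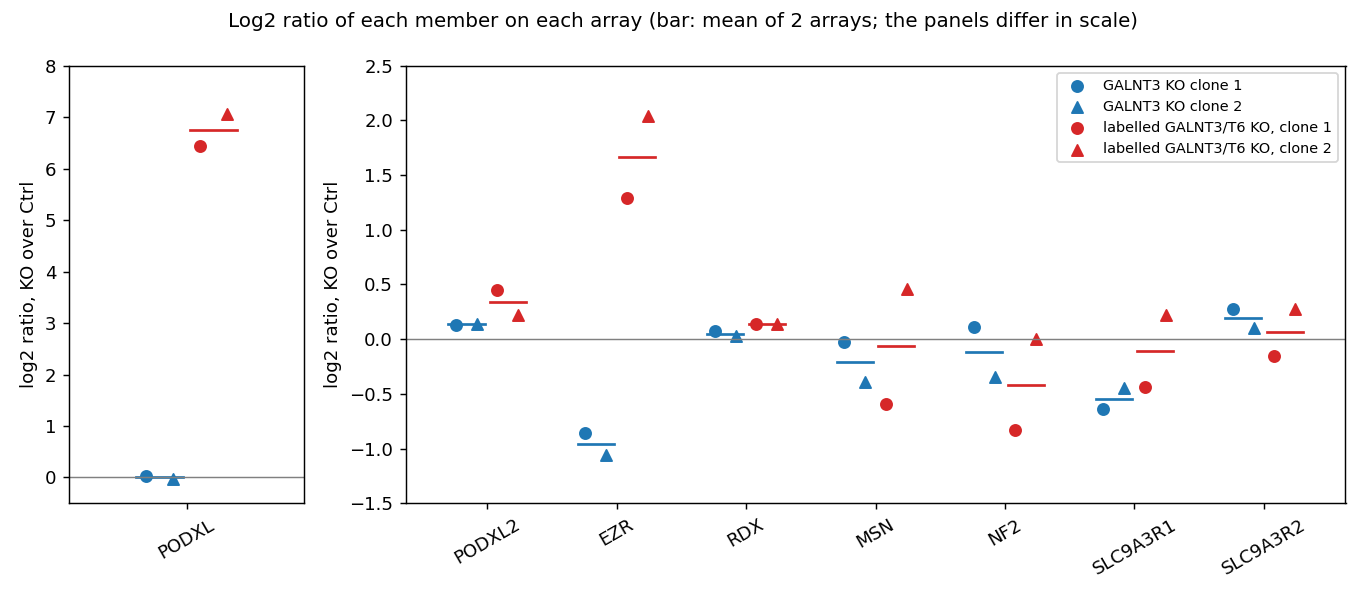
Log2 ratio of KO over Ctrl for each member on each array, with PODXL on its own scale at left. Points are arrays, with circles for clone 1 and triangles for clone 2, and bars are the mean of 2 arrays. PODXL and EZR are the members whose groups lie far apart, while for MSN, NF2, SLC9A3R1 and SLC9A3R2 the 2 GALNT3/T6 KO-labelled arrays differ by 0.43 to 1.05.

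Endoglycan changed little. PODXL2 stood at 0.13 and 0.14 in GALNT3 KO (mean 0.14, adjusted p = 0.342), and at 0.45 and 0.22 on the GALNT3/T6 KO-labelled arrays, both above the first pair. The mean of the second pair, 0.34 (SE 0.09, 1.26-fold, adjusted p = 0.0394), was called higher than Ctrl. The groups differed by 0.20 (95% interval -0.15 to 0.55, adjusted p = 0.387). With Agilent's own log ratio the mean was 0.57 in GALNT3 KO, which was not called (adjusted p = 0.0933 in limma). It was 0.84 on the GALNT3/T6 KO-labelled arrays (adjusted p = 0.00615 in limma). The rise against Ctrl on these arrays was called under 7 of 13 alternatives. Without GALNT3/T6 KO clone 1 the value was 0.22, which rests on 1 array of that group. The call against Ctrl was lost with only the group's own arrays fitted (adjusted p = 0.109 in limma).

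Radixin was the steadiest ERM gene. RDX gave 0.07 and 0.03 in GALNT3 KO, and 0.14 on both GALNT3/T6 KO-labelled arrays. Neither mean was called, at 0.05 (adjusted p = 0.67) and 0.14 (adjusted p = 0.192). The difference between the groups, 0.09, had a 95% interval of -0.20 to 0.38. This interval leaves out a difference as large as that of EZR.

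For moesin the 2 GALNT3/T6 KO-labelled arrays disagreed in sign. MSN stood at -0.03 and -0.39 in GALNT3 KO, and at -0.59 for clone 1 and 0.46 for clone 2 of the second group. That gap of 1.05 compares with a median gap of 0.17 over all genes on these arrays. The means were -0.21 (adjusted p = 0.597) and -0.06 (adjusted p = 0.858), and the difference was 0.15 (95% interval -0.85 to 1.14). With 1 clone of the second group left out, the value was 0.46 without clone 1 and -0.59 without clone 2. Each of these fits rests on 1 array of that group and holds none of this gap, so it cannot judge MSN. A neighbouring probe, A_23_P73593, showed the same split, at -0.56 and 0.55. On A_24_P186370 and A_32_P151102 the second pair stood at -0.32 and -0.04, and at -0.31 and 0.13. In GALNT3 KO, A_24_P186370 gave -0.35 and -0.54 (mean -0.45, adjusted p = 0.0657).

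Merlin showed a split of the same kind. NF2 stood at 0.11 and -0.35 in GALNT3 KO, and at -0.83 for clone 1 and 0.00 for clone 2 of the second group. The means of -0.12 and -0.41 were not called (adjusted p = 0.723 and 0.201), and the difference of -0.29 had a 95% interval of -1.16 to 0.58. Without GALNT3/T6 KO clone 2 the value was -0.83, which rests on 1 array of that group and cannot judge NF2. Its 4 probes did not give the same value. A_23_P325991, printed above, stood at -0.48 and -0.22 on the second pair, a mean called lower than Ctrl (-0.35, adjusted p = 0.0389). Its neighbour on the transcript, A_23_P29199, stood at 0.02 and 0.18 (mean 0.10, adjusted p = 0.413), and A_24_P168726 at -0.20 and 0.42 (mean 0.11, adjusted p = 0.609).

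**Figure D3:**
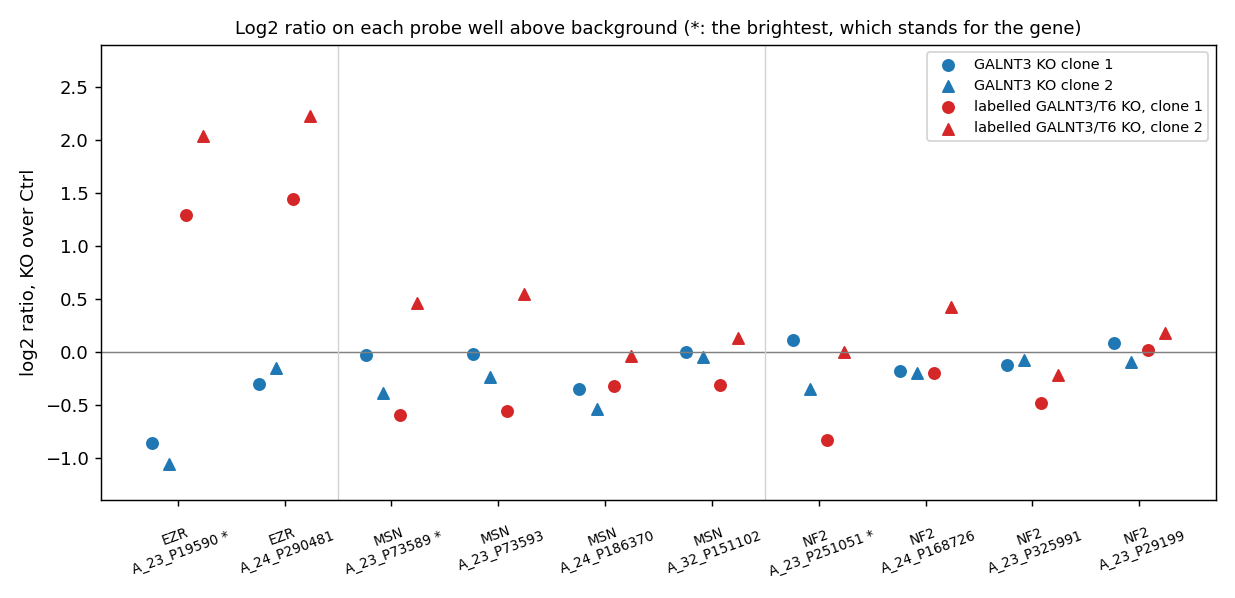
Log2 ratio of KO over Ctrl on every probe of EZR, MSN and NF2 that was well above background, with arrays as points (blue for GALNT3 KO, red for the GALNT3/T6 KO-labelled arrays, circles for clone 1, triangles for clone 2). Both EZR probes stood above 1 on the red arrays, and on every MSN and NF2 probe the red triangle lay above the red circle.

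Of the scaffolds that bind the podocalyxin tail, SLC9A3R1 (NHERF1) was the lower in GALNT3 KO, at -0.64 and -0.45 (mean -0.55, SE 0.18, adjusted p = 0.107), a value that did not pass the threshold. On the GALNT3/T6 KO-labelled arrays it stood at -0.44 and 0.22 (mean -0.11, adjusted p = 0.645), again with opposite signs. The groups differed by 0.44 (SE 0.25, adjusted p = 0.313). With only the group's own arrays fitted, the mean of -0.55 in GALNT3 KO passed the threshold (adjusted p = 0.00435 in limma). In that fit 9444 of all genes tested were called in GALNT3 KO, against 3053 as reported. The gained call is therefore not particular to SLC9A3R1. Leaving out either of the GALNT3/T6 KO-labelled arrays gave the same mean and adds no separate evidence. SLC9A3R2 (NHERF2) stood at 0.28 and 0.10 in GALNT3 KO and at -0.15 and 0.28 on the second pair. Its groups overlapped, and its difference was -0.12 (95% interval -0.62 to 0.37, adjusted p = 0.744).

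Over the whole set, 1 of 8 members was called in GALNT3 KO against Ctrl, namely EZR, lower. Of all genes tested 11.2% were called there, 4.79% higher and 6.44% lower, so that the share of members lay near the background. With median centring of each array in place of loess, the split over all genes was 547 higher and 1783 lower, against 1302 and 1751. On the GALNT3/T6 KO-labelled arrays, 2 of the 7 members other than PODXL were called against Ctrl, EZR and PODXL2, both higher, where 47.9% of all genes were called, 24.8% higher and 23.1% lower. Between the groups 1 of those 7 was called, EZR, higher on the GALNT3/T6 KO-labelled arrays, where 23.7% of all genes were called, 11.9% higher and 11.8% lower. The median log2 value over all genes tested was 0.02, 0.03 and -0.00 in the 3 comparisons. All 3 share arrays or the Ctrl reference, so their calls are not independent of each other.

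Because the line is labelled as an ovarian adenocarcinoma, markers of several cell types were read beside the members. Of 9 epithelial markers, 8 were well above background in the GALNT3 KO clones and 9 in the GALNT3/T6 KO-labelled clones. This does not set the epithelial list apart. Between 86.9% and 93.8% of all spots were well above background, and so were 5 of 6 leukocyte markers in the clones of either group. Relative to Ctrl, 0 of the 9 epithelial markers were called in GALNT3 KO, where 11.2% of all genes were called. On the GALNT3/T6 KO-labelled arrays 5 were called higher, where 24.8% of all genes were called higher. These were KRT18 (5.68), KRT19 (4.81), KRT7 (2.89) and KRT8 (2.83), keratins of simple epithelium, and CDH1 (0.75), which encodes E-cadherin. The summed KO signal of all 9 epithelial markers was 8960 to 10600 in GALNT3 KO and 890000 to 948000 on the GALNT3/T6 KO-labelled arrays. Their summed Ctrl signal was 8870 and 7910 on the GALNT3 KO arrays and 46500 and 34400 on the others, so the Ctrl channels also differed between the groups, and the cause was not tested. EPCAM, CLDN3, CLDN4 and ESRP1 were not called. The named keratins were higher, as were PODXL and EZR, on the GALNT3/T6 KO-labelled arrays. In GALNT3 KO, where EZR was called lower, they were not called (KRT18 0.59, KRT19 0.43, KRT7 -0.04 and KRT8 -0.22). Their part in the values of PODXL and EZR was not tested. In RNA from a whole clone, more cells that carry a transcript and more transcript per cell cannot be told apart.

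In summed KO signal the other marker lists differed less between the groups, while the share called was not smaller in every list. Of all genes tested, 24.8% were called higher and 23.1% lower on the GALNT3/T6 KO-labelled arrays. Of 7 ovarian and Mullerian markers, 4 were called higher and 0 lower on the GALNT3/T6 KO-labelled arrays (PAX8 1.21, MSLN 1.08, WT1 1.01 and FOLR1 0.41), with a summed KO signal of 7290 to 7840 there and 7290 to 7390 in GALNT3 KO. NPHS1, which encodes the podocyte protein nephrin, stood at 0.11 and was not called (adjusted p = 0.321). For endothelial markers 3 of 7 tested were higher, at a summed signal of 5730 to 6160 against 4790 to 5170, and PECAM1 was not well above background on any array. The pluripotent list had 1 of 7 higher and 2 lower, at 6620 to 10400 against 9830 to 9940. The fibroblast list had 3 of 8 higher and 4 lower, at 49100 to 76200 against 49000 to 55900. The leukocyte list had 1 of 5 higher and 1 lower, at 5580 to 6540 against 4340 to 4460. In GALNT3 KO, 1 endothelial, 1 pluripotent and 1 fibroblast marker were called higher, and 1 fibroblast marker lower. The part of these lists in the members' values was not tested.

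The wider pathway was read through 7 lists of 102 genes, of which 101 were tested. In GALNT3 KO against Ctrl 6 of these were called higher and 9 lower, 14.9% of those tested, with a median log2 ratio of -0.00. On the GALNT3/T6 KO-labelled arrays 39 were called higher and 20 lower, 58.4%, with a median of 0.22. Between the groups 22 were called higher and 12 lower, 33.7%, with a median of 0.11. These shares, and the counts of each list below, stand beside 11.2%, 47.9% and 23.7% of all genes. On the GALNT3/T6 KO-labelled arrays 24.8% of all genes were called higher and 23.1% lower. The lists were put together with earlier results of these arrays in view. The calls depended on the number of arrays fitted. Without either GALNT3 KO clone, 41 of the 101 were called in the second group against Ctrl. In GALNT3 KO itself, 0 of all genes tested were then called, so the lists could not be judged there. Between the groups 10 were called without clone 1 and 11 without clone 2. Among the genes named below, SDC2, ARHGAP17, ACTN4, PLS1 and SYTL2 then lost their call in the second group against Ctrl, ACTN4 also without GALNT3/T6 KO clone 2, and CYR61, AMOTL2, MYO6, PLS1 and WT1 lost theirs between the groups.

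Surface proteins that bind ERM proteins, listed together with CD34, held the largest rise of the 7 lists, that of CD44. Of 13 tested on the GALNT3/T6 KO-labelled arrays, 6 were called higher and 1 lower. CD44, the hyaluronan receptor, stood at 5.24 and 5.67 (mean 5.46, adjusted p = 9.09e-05), beside 0.07 and 0.02 in GALNT3 KO. ICAM1, an adhesion receptor for leukocyte integrins, stood at 3.89 and 3.86 (mean 3.88), beside 0.08 and 0.10. PDGFRB, a receptor tyrosine kinase whose tail binds NHERF proteins, stood at 3.09 and 3.79 (mean 3.44), beside -0.98 and -0.66. These 3 were also called between the groups, at 5.41, 3.79 and 4.26. SDC2, which encodes the proteoglycan syndecan-2, stood at -2.66 for clone 1 and was less low for clone 2 (mean -1.83, adjusted p = 0.019). In GALNT3 KO 0 of the 13 were called in limma, and 5 had an unadjusted p under 0.05.

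Regulators of the ERM proteins, most of them kinases, went both ways. On the GALNT3/T6 KO-labelled arrays 4 of 19 were called higher and 8 lower. PRKCA, which encodes protein kinase C alpha, stood at 2.97 (adjusted p = 0.000228), or at 1.78 with the mean of its 3 probes. PTPRJ, a receptor phosphatase, stood at 1.62. ROCK1, a kinase that raises actomyosin contractility, stood at -1.55 (adjusted p = 0.00808), and STK26, a kinase of the MST family that phosphorylates ezrin, at -1.51 (adjusted p = 0.000611). STK26 was called lower in GALNT3 KO as well, at -0.52, and so was PPP1CB, a catalytic subunit of protein phosphatase 1, at -0.97. The latter moved to -0.20 and lost its call with the mean of its 4 probes (adjusted p = 0.336).

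Among other proteins of the cell cortex, only some of which have PDZ or FERM domains, 4 of 16 were called higher and 2 lower on the GALNT3/T6 KO-labelled arrays. EPS8, an actin-capping and bundling protein of microvilli, stood at 3.94 and 4.11 (mean 4.02, adjusted p = 9.09e-05), beside -0.01 and -0.21 in GALNT3 KO. PDZK1, a relative of the NHERF scaffolds, stood at -2.96 and -3.04 (mean -3.00, adjusted p = 0.000123). It was lower in GALNT3 KO too, at -0.92 and -0.67 (mean -0.79, adjusted p = 0.0259), and lower between the groups, at -2.20. ARHGAP17 stood at 0.89 and ACTN4 at 0.66, the latter not called with the mean of its 2 probes (0.22, adjusted p = 0.497). In GALNT3 KO, 2 were called higher and 2 lower. FRMD6 stood at 1.29 there, FRMD4A at 0.72 and EPB41L3 at -0.89, and FRMD4A moved to 0.07 with the mean of its 5 probes (adjusted p = 0.567).

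The list of merlin and the Hippo pathway, a kinase cascade that restrains the coactivators YAP and TAZ, had 17 of 18 genes called on the GALNT3/T6 KO-labelled arrays, 11 higher and 6 lower. Its 4 largest values were CYR61 at 3.48 and 4.44 (mean 3.96, adjusted p = 0.000543), ANKRD1 at 3.56 and 3.28 (mean 3.42, adjusted p = 0.000107), CTGF at 3.19 and 3.03 (mean 3.11, adjusted p = 0.000117), and AMOTL2 at 2.17 and 2.98 (mean 2.58, adjusted p = 0.00116). All 4 are known as targets of YAP and TAZ. Named after their values were seen, genes called lower included MOB1B, which encodes a Hippo kinase adaptor, at -2.20 and -1.99 (mean -2.10, adjusted p = 0.000301), and WWTR1, which encodes TAZ, at -0.80 and -0.62 (mean -0.71, adjusted p = 0.00377). YAP1, which encodes YAP and is named for the same reason, was called higher, at 1.05 and 1.54 (mean 1.29, adjusted p = 0.00254). With the mean of its 2 probes YAP1 stood at 0.58 and was not called (adjusted p = 0.0678 in limma). Between the groups 7 were higher and 4 lower, and CYR61 (4.44), ANKRD1 (3.31) and AMOTL2 (3.21) were among the higher, MOB1B (-2.39) and WWTR1 (-1.44) among the lower, the call of WWTR1 being lost without either GALNT3 KO clone. CTGF was called in GALNT3 KO too, at 1.26 and 1.48 (mean 1.37, adjusted p = 0.0116). There STK3, a Hippo kinase, stood at -0.76, and WWTR1 at 0.73, or at 0.22 with the mean of its 5 probes, which was not called (adjusted p = 0.235).

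Of the genes for the actin core and tethers of microvilli and filopodia, 5 of 14 were called higher and 0 lower on the GALNT3/T6 KO-labelled arrays. The plastins PLS3 (1.33) and PLS1 (0.80), which bundle actin, stood highest, ahead of ESPN (0.66) and USH1C (0.54). In GALNT3 KO PLS1 was called lower, at -0.63 and -0.90 (mean -0.77, adjusted p = 0.0491), as was MYO6, a motor that moves towards the minus end of actin, at -1.97 and -1.24 (mean -1.60, adjusted p = 0.04). Both were called higher between the groups, MYO6 by 2.15 and PLS1 by 1.56.

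Apical transport and lumen formation genes had 7 of 15 called higher and 3 lower on the GALNT3/T6 KO-labelled arrays. RAB3IP, which encodes the exchange factor Rabin8, stood at 3.24 and 2.99 (mean 3.12, adjusted p = 0.00012), or at 1.66 with the mean of its 3 probes. MYO5B, a vesicle motor of apical recycling, stood at 3.02 on both arrays (adjusted p = 0.00014). SYTL2, a Rab27 effector, stood at 1.52 and 3.40 (mean 2.46, adjusted p = 0.0114), and PARD6B, a polarity protein, at 2.44 and 2.06 (mean 2.25, adjusted p = 0.000337). In GALNT3 KO 2 were higher and 2 lower, RAB3IP at 1.35, PRKCI at 0.67, EXOC5 at -0.89 and RAB8A at -0.51. EXOC5 was not called with the mean of its 6 probes (-0.32, adjusted p = 0.0854).

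Of 6 transcription factors known to act on PODXL, 2 were called higher on the GALNT3/T6 KO-labelled arrays. WT1, a zinc finger factor of the podocyte lineage, stood at 0.80 and 1.23 (mean 1.01, adjusted p = 0.00382), beside -0.07 and -0.17 in GALNT3 KO, and was called between the groups at 1.14 (adjusted p = 0.0135). SP1 stood at 0.53, or at 0.08 with the mean of its 2 probes, which was not called (adjusted p = 0.576). In GALNT3 KO 0 of the 6 were called in limma, with 1 at an unadjusted p under 0.05.

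**Figure D4:**
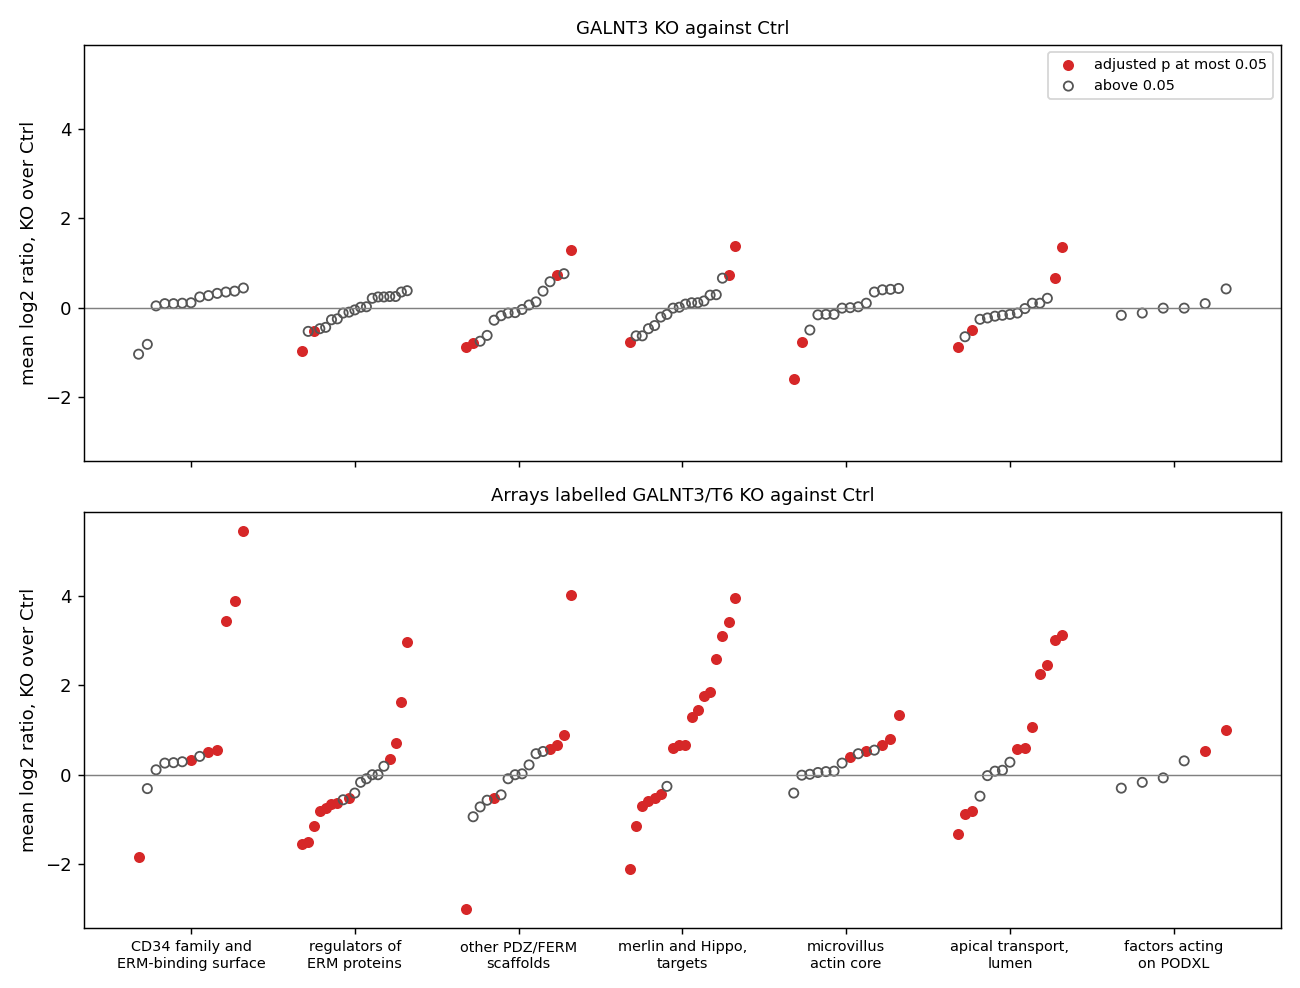
Mean log2 ratio of KO over Ctrl for each of the 101 tested genes of the 7 lists, sorted within a list, in GALNT3 KO (top) and on the GALNT3/T6 KO-labelled arrays (bottom). Filled red circles passed an adjusted p of 0.05 in limma, 15 in the top panel and 59 in the bottom panel, and open circles did not.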

How the data were processed

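Per the labels, the authors hybridised Cy3-labelled Ctrl and Cy5-labelled knockout cRNA to Agilent arrays and deposited the scanner output. Spot intensities and background intensities in these deposited files are linear. Agilent Feature Extraction is given as 8.5.1.1 in the submitters' notes and as 10.7.3.1 in the file headers. The deposited log10 ratios of the scanner files and of the authors' value table, which follow each other, served as alternatives.

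Intensities were background-corrected (normexp, offset 50) and normalized within arrays by loess (limma 3.58.1, R 4.3.3). Control and outlier spots were left out. Probes entered the fit where either channel was well above background on each array of at least 1 group, and the brightest probe stood for its gene. Single channels were compared after quantile normalization of the mean log signal. All 4 arrays were fitted in limma, with Benjamini-Hochberg adjustment over 27198 genes and calls at an adjusted p of 0.05 or less. The number of arrays limits the precision. The p-values rest on the spread between the 2 clones of each group, pooled over both groups and drawn towards that of all genes. The fit was checked on simulated data. Members and gene lists were chosen with earlier results of these data known. Named from each list were the called genes, at most 4 in a comparison by size, and the 6 genes nearest to PODXL. Alternatives covered background correction, scaling, probe choice, filter, arrays fitted and clone numbers. The podocyte marker list is not reported here.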

Additional observations from a re-analysis of the deposited data

How the results depend on the processing

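Counts of calls depended on the scaling, the probe rule and the arrays fitted. In GALNT3 KO against Ctrl the number of members called was 0 (1 as reported) with Agilent's own log ratio, the deposited value table, median centring, the mean of all probes or clone number as a replicate block, and 2 with only the group's own arrays. At an unadjusted p under 0.05 it was 3, 3, 2, 2 and 2 in limma for those with 0 calls. Of the other genes of the pathway, called in the same comparison, there were 5 with Agilent's log ratio, 5 with the value table, 7 with median centring, 42 with the group's own arrays and 0 with the replicate block (29 at an unadjusted p under 0.05), against 15 as reported. For the GALNT3/T6 KO-labelled arrays against Ctrl, 1 member was called with median centring, with the group's own arrays and with the replicate block, against 2. With each clone left out in turn, the members called ran from 0 to 2 in GALNT3 KO, from 1 to 5 on the GALNT3/T6 KO-labelled arrays and from 0 to 3 between the groups. A clone left alone in its group was assumed to vary like the other group. The other genes of the pathway called ran from 0 to 42, from 41 to 66 and from 10 to 56. Over all genes, 3053 calls in GALNT3 KO became 590 with Agilent's log ratio, 586 with the value table, 82 with the replicate block, 9444 with the group's own arrays, and 0 without either GALNT3 KO clone (4686 without clone 1 and 3252 without clone 2 at an unadjusted p under 0.05). The 13020 calls on the GALNT3/T6 KO-labelled arrays became 8273 with the group's own arrays, and the 6445 between the groups ran from 1206 to 8926 with each clone left out.

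EZR on the GALNT3/T6 KO-labelled arrays was called under all 14 alternatives (1.29 to 2.04, adjusted p = 5.18e-06 to 0.0289), while its fall in GALNT3 KO ranged from -1.23 to -0.22 (adjusted p = 0.000356 to 0.456). PODXL stayed between 6.39 and 7.07 on those arrays and between -0.26 and 0.04 in GALNT3 KO. Values that turned sign with a call when 1 GALNT3/T6 KO-labelled clone was left out were MSN (-0.59 to 0.46), ACTB (-0.70 to 0.71) and ACTG1 (-0.75 to 1.27 against Ctrl and -1.17 to 0.85 between the groups). RAB11A (-0.33), ETS1 (0.51), FRMD4A (0.68) and CDC42 (0.43) turned with the mean of all probes. Clone numbers need not pair the arrays: deviations of same-numbered arrays correlated at r = -0.24. With the numbers crossed, an alternative chosen after seeing the data, as were the single probes of EZR, MSN and NF2, 1, 3 and 1 members were called in the 3 comparisons. The cause of these changes was not tested.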
